A study of Mus musculus with 14 samples.

Results

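The H3K27ac sites at 10 genes of growth factor receptor tyrosine kinases were examined in immortalised mouse embryo fibroblasts (iMEF). A site belonged to a gene if its middle lay in the annotated gene body or within 50 kb of either end. By this rule 579 of the 122228 sites in the list were at the 10 genes. The genes were grouped by textbook knowledge of where they act, with earlier results of these data known. Pdgfra, Pdgfrb, Fgfr1, Igf1r and Axl formed the mesenchymal group with 195 sites, and Egfr, Erbb3, Fgfr2, Met and Kit formed the group of other receptors with 384 sites. Of these 384 sites, 225 were assigned only through 1 unusually long transcript of Fgfr2, which is described with that gene, and 159 were left without it.

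All cells were iMEF whose floxed Ash2l alleles had lost exon 4 through an inducible Cre-ER. They instead expressed human ASH2L fused to FKBP-F36V and 2 HA tags, introduced by a lentivirus, and the line was a single clone. ASH2L is a core subunit of the complexes that methylate lysine 4 of histone H3, and dTAG-13 brings about degradation of the fusion protein. Chromatin was precipitated with an antibody to H3K27ac, the acetylation of histone H3 at lysine 27 that is found at promoters and enhancers in use, in 2 libraries of untreated control cells and 2 libraries each after 30 min, 2 h, 4 h, 8 h and 16 h of dTAG. An input library was made from control cells and another from cells after 16 h of dTAG. The sites of all samples had been joined in 1 list of positions without a value per sample, so the time points were not compared, the read depth behind a site was unknown, and no value below has a replicate error or a test.

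Receptor tyrosine kinases span the plasma membrane and bind a growth factor outside the cell. Binding pairs the receptor chains, the kinase domains phosphorylate each other, and adaptor proteins then relay the signal to the RAS-MAP kinase and PI3 kinase pathways. Fibroblasts are classical targets of platelet-derived growth factors, fibroblast growth factors and insulin-like growth factors. Kit and Erbb3 are best known from other cells, Kit from blood, germ and pigment cells and Erbb3 from epithelia and Schwann cells. The cell type was checked against marker genes. Of 10 fibroblast markers, 8 had H3K27ac in the window of 1 kb on each side of the transcription start site (TSS), among them Col1a1, Col1a2, Vim, Twist1 and Prrx1 with a cover of 100%, whereas Lum and Dcn had 0%. Counted by the middle of a site, as for promoter sites below, the number was 6 of 10, compared to 54.7% of all protein-coding genes. Of 8 epithelial markers, Krt8 alone had any such cover, with 43.0%, and Epcam, Cdh1 and Krt14 had 0%. Cdh1 had 14 intronic sites. A promoter site was present at 1 of 6 endothelial markers, 1 of 6 haematopoietic markers and 1 of 6 Schwann and melanocyte markers. The fibroblast count by this rule was thus near the share of all genes, and the counts of the other cell types were below it.

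The DNA before the start sites of 4 receptor genes is shown, to set promoters rich and poor in CpG dinucleotides that lay in H3K27ac sites beside one that did not. The sequences are the bases directly upstream of the RefSeq start on GRCm38.p6, written 5′ to 3′ on the strand of the gene, with each CpG in capitals. Igf1r is at chr7:67952007-67952256 (plus strand), Axl at chr7:25788734-25788983 (minus strand), Egfr at chr11:16751953-16752202 (plus strand) and Kit at chr5:75574737-75574915 (plus strand, bases of annotated exons left out).
Igf1r: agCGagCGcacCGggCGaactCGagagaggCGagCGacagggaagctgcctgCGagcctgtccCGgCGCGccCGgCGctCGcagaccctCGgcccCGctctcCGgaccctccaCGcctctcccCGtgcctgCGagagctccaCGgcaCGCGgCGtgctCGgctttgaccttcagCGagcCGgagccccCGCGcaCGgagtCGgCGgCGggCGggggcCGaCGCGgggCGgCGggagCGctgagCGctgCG
Axl: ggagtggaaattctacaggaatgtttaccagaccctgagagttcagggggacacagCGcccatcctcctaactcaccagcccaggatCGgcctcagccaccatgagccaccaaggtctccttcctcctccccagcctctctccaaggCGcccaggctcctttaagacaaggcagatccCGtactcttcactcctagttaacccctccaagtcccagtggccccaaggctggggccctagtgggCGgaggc
Egfr: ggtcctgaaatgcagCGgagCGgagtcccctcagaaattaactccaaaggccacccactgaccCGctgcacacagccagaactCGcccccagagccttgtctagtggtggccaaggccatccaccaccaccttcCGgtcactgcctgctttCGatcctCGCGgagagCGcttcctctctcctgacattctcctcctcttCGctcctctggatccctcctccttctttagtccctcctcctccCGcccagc
Kit: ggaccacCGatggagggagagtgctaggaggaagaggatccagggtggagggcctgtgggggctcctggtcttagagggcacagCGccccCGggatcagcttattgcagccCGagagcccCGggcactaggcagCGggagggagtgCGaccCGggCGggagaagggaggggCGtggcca
The 250 bases before the start held 42 CpGs in Igf1r, 5 in Axl and 11 in Egfr, and 17 in Kit including the exon bases not printed, compared to a median of 6 (quartiles 2 and 16) over 32851 RefSeq promoters. In Igf1r, Axl and Egfr all 250 bases lay in H3K27ac sites, and in Kit 0 did. Of the receptor promoters not printed, Pdgfra had 4 CpGs with 0 of 250 bases in sites before its RefSeq start, and Fgfr2 had 2 CpGs with 110 of 250 bases in sites. Met had 24 CpGs with all 250 bases in sites. The RefSeq starts of Pdgfra, Fgfr2 and Met lay upstream of the TSS of their principal transcript. Around that TSS the observed to expected CpG ratio was 0.573 in Pdgfra, 0.927 in Fgfr2 and 0.275 in Met. The cover of Met there was 41.6%, so the 24 CpGs and full cover belong to its upstream start. Windows poor in CpG before a RefSeq start thus differed among themselves in cover, which does not describe the principal promoters.

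Sites at promoters were compared first. A gene had a promoter site if the middle of a site lay within 1 kb of the TSS of any of its transcripts, which was the case for 54.7% of 21755 protein-coding genes. All 5 mesenchymal receptor genes had a promoter site, and 3 of the 5 other receptor genes had one, namely Egfr, Fgfr2 and Met. Erbb3 and Kit had none. Among protein-coding genes at least as rich in CpG as a given receptor gene, by the ratio below, the share was higher than 54.7%. It ranged from 72.4% for Met to 93.6% for Igf1r. With the TSS of the principal transcript as the only start, Axl dropped out and 4 mesenchymal genes were counted, because the site over the Axl start was so wide that its middle lay inside the gene. The TSS of the principal transcript itself lay inside a site in 7 of the 10 genes, that is in all but Fgfr1, Erbb3 and Kit, compared to 38.4% of all protein-coding genes.

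Promoter cover, the percentage of the 2001 bases around the principal TSS that lay in sites, placed the mesenchymal receptors higher. It was 100% in Pdgfrb, Igf1r and Axl, 84.5% in Pdgfra and 59.2% in Fgfr1, a median of 100%. Among the other receptors it was 81.7% in Fgfr2, 76.4% in Egfr, 41.6% in Met and 0% in Erbb3 and Kit, a median of 41.6%. The median of all protein-coding genes was 20.2%, and that of genes at least as long as the shortest of the 10 receptor genes (22.1 kb) was 44.3%. The groups overlapped, since Fgfr2 and Egfr lay above Fgfr1. A cover of 100% corresponded to the 97.1 percentile of protein-coding genes, and 81.7% and 76.4% to the 86.5 and 82.2 percentiles. The difference depended in part on the start that was used for Met and Fgfr1. When each gene was given the TSS with its highest cover, Fgfr1 and Fgfr2 reached 100%, Egfr 95.2%, Pdgfra 88.2% and Met 69.8%, while Erbb3 and Kit stayed at 0%. The Fgfr2 start with 100% was that of the unusually long transcript, near Ctbp2 and 2860 kb upstream of the principal TSS. The next highest start of Fgfr2 had 95.0%. The Egfr start with 95.2% lay inside the gene, 152974 bp after the principal TSS. Fgfr2 and Egfr then both lay above Pdgfra.

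**Figure D1:**
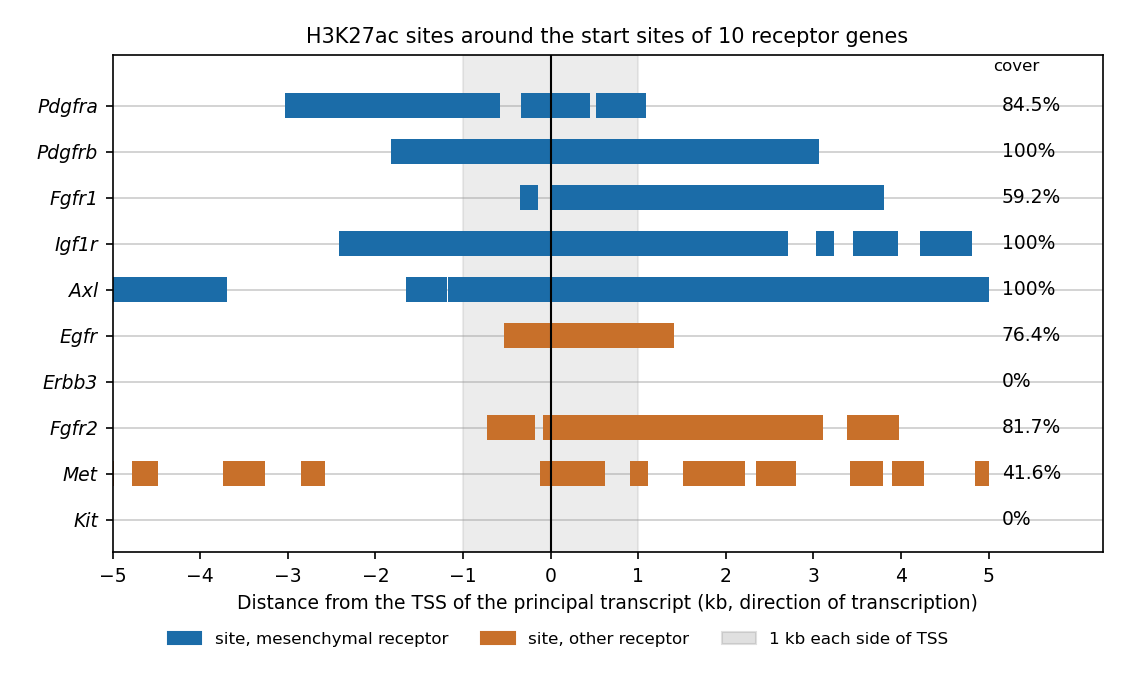
H3K27ac sites within 5 kb of the TSS of the principal transcript of each gene, with distance in kb in the direction of transcription on the x axis and the promoter cover printed at the right. Blue bars are sites of mesenchymal receptors and orange bars sites of other receptors. Pdgfrb, Igf1r and Axl are covered throughout the grey window of 1 kb on each side, while Erbb3 and Kit have no site in the 10 kb shown.

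The platelet-derived growth factor receptors Pdgfra and Pdgfrb drive migration and division of fibroblasts, and their loci differed in layout. Pdgfra (chr5:75152292-75198215, plus strand, 45.9 kb) had 3 sites, all at promoters, and 0 intronic, exonic or flanking sites. The 3 sites measured 2463, 782 and 573 bp and together spanned 4128 bp, from 3034 bp before to 1093 bp after the principal TSS, which lay in the site of 782 bp. The outermost annotated start of Pdgfra, from which other transcripts begin, was covered only to 21.4%.

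Pdgfrb (chr18:61045150-61085061, plus strand, 39.9 kb) had 1 promoter site of 4884 bp, which ranked 497 by width among 122171 sites on chromosomes 1 to 19 and X. It reached from 1824 bp before to 3059 bp after the TSS. Another 7 sites were intronic, of which 4 were in intron 1, and the widest of them measured 3693 and 2617 bp. A run of 5 intronic sites less than 1 kb apart covered the stretch from 6881 to 16001 bp after the TSS. Sites made up 29.5% of the Pdgfrb gene body, compared to 8.31% in Pdgfra. The flanks held 4 sites. They comprised 2 upstream in the transporter gene Slc6a7 and 2 downstream at Csf1r, which encodes the macrophage receptor for colony stimulating factor 1. The Csf1r sites measured 200 bp at its promoter and 728 bp in its body.

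Fgfr1 encodes a receptor for fibroblast growth factors and is the member of its family best known from mesenchymal tissues. Fgfr1 (chr8:25513654-25575718, plus strand, 62.1 kb) had 27 sites. The principal TSS lay in a gap between a site of 204 bp that ended 143 bp upstream and a site of 3785 bp that started 20 bp downstream. Hence the bases upstream of the TSS accounted for most of the missing cover. The outermost annotated 5′ end of Fgfr1 had 0% cover. Another annotated start, 1078 bp downstream of the principal TSS and inside the site of 3785 bp, was covered to 100%. A run of 4 sites from 12481 to 20011 bp after the principal TSS included a site of 4587 bp and 2 promoter sites at further starts. The 7 intronic sites lay in introns 1 and 2, and the 2 exonic sites lay near the 3′ end. All 14 flanking sites were at or in other genes, with 5 in Gm31045, 2 at or in Letm2 and D830025C05Rik and 7 at or in Nsd3, a histone methyltransferase gene.

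Igf1r, the receptor for insulin-like growth factors, had more intronic sites per length than the other 9 genes, but with sites less than 1 kb apart merged Egfr had 15.7 per 100 kb and Igf1r 13.5. Igf1r (chr7:67952827-68233668, plus strand, 281 kb) had 128 sites, of which 2 were at promoters, 106 intronic, 4 exonic and 16 flanking. Only 33 protein-coding genes had more intronic sites, which placed Igf1r at rank 34. The site over the TSS measured 5128 bp and reached from 2413 bp before to 2714 bp after it. The other promoter site, of 2951 bp, was at an internal start in intron 2. Intron 1 of 50.9 kb held 15 of the intronic sites, which is 29.5 per 100 kb, and the rest of the gene held 91, or 39.6 per 100 kb. In 2 runs, 13 sites each followed one another at less than 1 kb, over 15062 and 16633 bp. The first began 63954 bp and the second 191318 bp after the TSS.

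Axl belongs to the TYRO3, AXL and MERTK family, whose ligand is Gas6. Axl (chr7:25757273-25788705, minus strand, 31.4 kb) carried the widest site of all 10 genes. The site of 10722 bp ranked 32 among 122171 sites. It started 1170 bp before the principal TSS and ended 9551 bp after it, and so it took in introns 1 to 3 and part of intron 4. Its middle, 4191 bp after the TSS, lay in an intron, and it is therefore counted among the 9 intronic sites. The 1 promoter site of Axl was at an internal start in intron 16 and measured 225 bp. The remaining 8 intronic sites were narrow, from 200 to 627 bp. Because of the wide site, 40.6% of the Axl gene body lay in sites, the highest value of the 10 genes, which corresponded to the 94.9 percentile of protein-coding genes. The flanks held 13 sites, of which 4 were at the promoters and 4 in the bodies of other genes, among them the neighbours Ccdc97 and Hnrnpul1.

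The epidermal growth factor receptor gene Egfr had the second highest number of intronic sites per length. Egfr (chr11:16752203-16918158, plus strand, 166 kb) had 63 sites, of which 4 were at promoters, 53 intronic, 1 exonic and 5 flanking. The site over the TSS measured 1934 bp and was narrower than those of Pdgfrb, Igf1r and Axl. It reached 527 bp upstream and 1406 bp downstream. The 3 other promoter sites had their middles in introns 12, 21 and 22, within 1 kb of internal starts. Those in introns 21 and 22 were near the same start. Intron 1, which makes up 106 kb of the gene, held 43 of the 53 intronic sites. This was 40.4 sites per 100 kb, compared to 16.8 per 100 kb in the rest of the gene. The widest site in intron 1 measured 3355 bp and lay 57301 bp after the TSS.

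Erbb3 binds neuregulins and signals through its partner Erbb2, since its own kinase domain is weak. Erbb3 (chr10:128567523-128589652, minus strand, 22.1 kb) had 13 sites, but 0 at its promoter and 0 in its introns. The 1 site in the gene body was exonic, measured 311 bp and started 21612 bp after the TSS in the 3′ part of the gene. It belonged to a run of 4 sites less than 1 kb apart, the rest of which lay at or in the neighbour Pa2g4. The other 12 sites flanked the gene. All 12 belonged to other genes by position, with 8 at their promoters and 4 in their bodies. Of these, 11 were downstream, at Pa2g4, Zc3h10, Rpl41, Esyt1 and Gm29585, and 1 upstream was at the promoter of the ribosomal protein gene Rps26. The number of flanking sites of Erbb3 corresponded to the 81.3 percentile of protein-coding genes, although 0 of them was intergenic.

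Fgfr2 is expressed as isoforms that differ between epithelial and mesenchymal cells. Its record in the annotation (chr7:130162451-133123350, minus strand) is 2960 kb long, because 1 of 27 transcripts begins near Ctbp2, and the extra stretch contains 29 other protein-coding genes. With this record Fgfr2 had 272 sites, of which 256 were intronic and 7 at promoters. Without the long transcript the gene measured 104 kb (chr7:130162451-130266263) and had 47 sites. They comprised 6 promoter sites, 25 intronic sites, 8 upstream and 8 downstream. The TSS lay in a site of 3205 bp that reached 3115 bp into the gene, and a site of 545 bp followed upstream. The intronic sites of the shorter gene fell into clusters, with 6 between 7469 and 12289 bp from the TSS and 18 between 49541 and 95812 bp. The remaining 1 stood alone at 41549 bp.

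Met, the receptor for hepatocyte growth factor, acts in epithelial cells and in migrating muscle precursors. Met (chr6:17463800-17573980, plus strand, 110 kb) had 36 sites, of which 2 were at promoters, 28 intronic, 1 exonic and 5 flanking. The outermost start was covered by a site of 1396 bp. The principal TSS lay a further 27.4 kb downstream in a site of 737 bp. Between both starts 11 intronic sites were found, and intron 1 of the principal transcript held another 12, or 57.4 per 100 kb compared to 17.9 per 100 kb in the rest of the gene. The remaining 5 intronic sites lay in introns 2, 13 and 14, and the 3′ part of the gene was free of sites from 63362 bp after the principal TSS to its end.

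Kit, the receptor for stem cell factor, was the only one of the 10 genes without any site. Kit (chr5:75574916-75656722, plus strand, 81.8 kb) had 0 sites in its body and 0 within 50 kb of either end, and 0 were found when the flank was extended to 100 kb. The nearest site, of 632 bp, lay 346853 bp downstream of the TSS. Kit lies on the same chromosome as Pdgfra, and the site-free interval around it (chr5:75156993-75921807, 764815 bp) began with the base after the last Pdgfra site. It ended 11020 bp from the 3′ end of Kdr, the gene for an endothelial receptor of vascular endothelial growth factor, which had 0 promoter sites. The interval ranked 335 by length among 122151 gaps between neighbouring sites, and 24 among the 6700 gaps of chromosome 5. The median gap over all chromosomes was 1044 bp. The interval wholly contained 14 annotated genes, of which Kit was the only protein-coding gene. Upstream of the Pdgfra sites there was another gap of 106 kb, so the 3 Pdgfra sites stood alone between the site that ended at 75047228 and the site that began at 75921808.

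**Figure D2:**
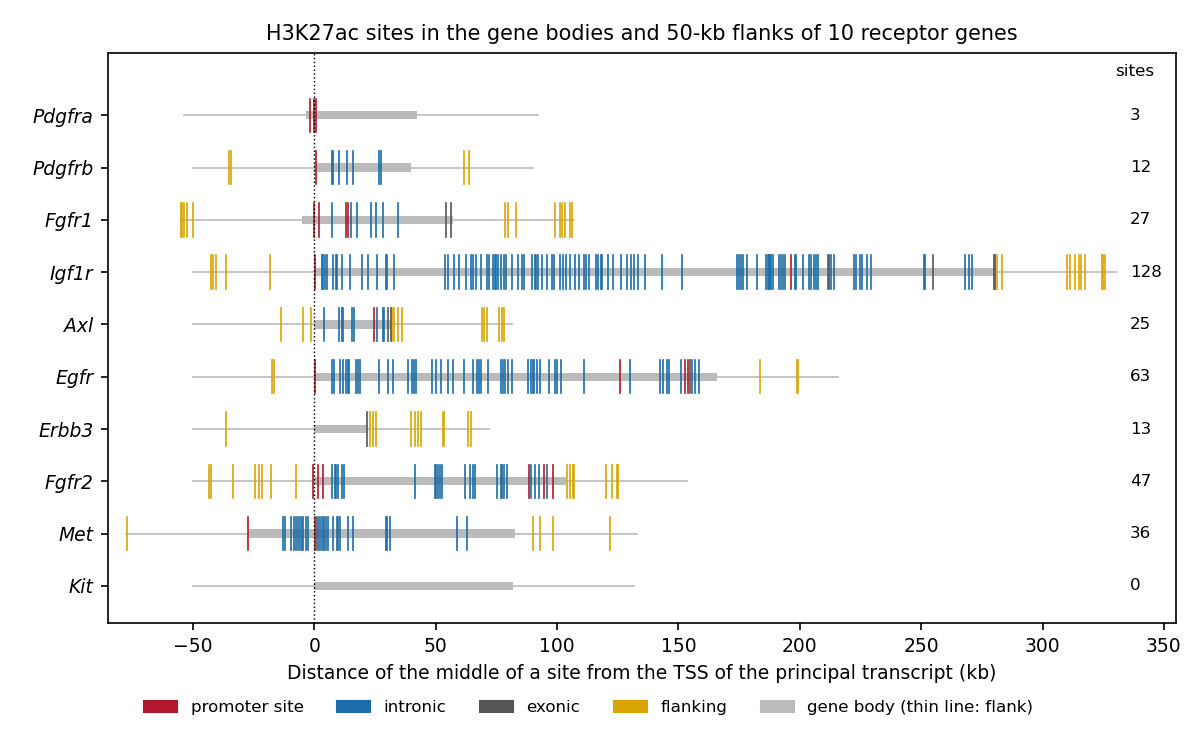
Sites at the 10 genes by distance of the middle of the site from the TSS of the principal transcript, in kb in the direction of transcription. Grey bars are gene bodies, thin lines the flanks of 50 kb, coloured ticks the sites by class, and the number of sites is printed at the right, with Fgfr2 drawn without its longest transcript. Sites of Igf1r run through the whole gene, 43 of the 53 intronic sites of Egfr are in intron 1, sites of Met crowd towards the 5′ part, Pdgfra has sites at its start only and Kit has none.

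Intronic sites were then compared per length. At least 1 intronic site was present in 7 of the 10 genes, all but Pdgfra, Erbb3 and Kit, compared to 32.9% of all protein-coding genes and 60.2% of the 9459 that were at least 22.1 kb long. The mesenchymal receptors had 37.7 intronic sites per 100 kb in Igf1r, 28.6 in Axl, 17.5 in Pdgfrb, 11.3 in Fgfr1 and 0 in Pdgfra, a median of 17.5. The other receptors had 31.9 in Egfr, 25.4 in Met, 8.65 in Fgfr2 and 0 in Erbb3 and Kit, a median of 8.65. Without the long Fgfr2 transcript the value of Fgfr2 was 24.1 and the median of the other receptors 24.1, which was above that of the mesenchymal receptors. The order of the groups thus depended on 1 transcript. Long protein-coding genes had a median of 2.18, and the values of Igf1r, Egfr and Axl corresponded to the 98.0, 97.0 and 96.2 percentiles of these genes.

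**Figure D3:**
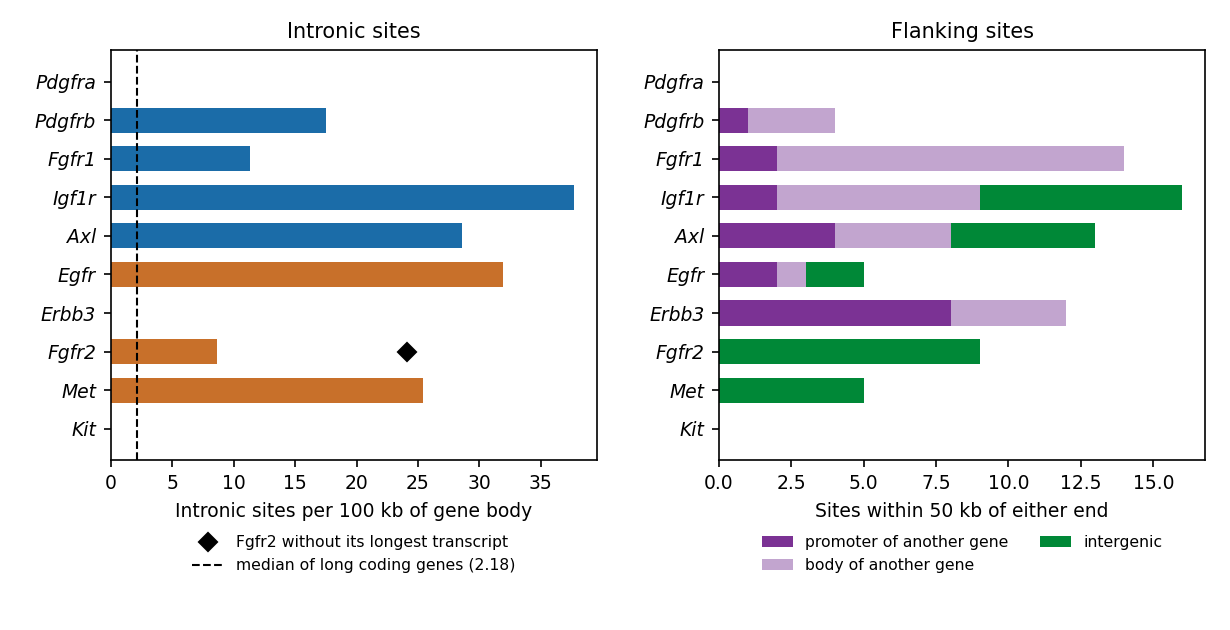
Left, intronic sites per 100 kb of gene body, with mesenchymal receptors in blue, other receptors in orange, a diamond for Fgfr2 without its longest transcript and a dashed line at the median of protein-coding genes of at least 22.1 kb. Right, number of sites within 50 kb of either end by position relative to other genes, with Fgfr2 as annotated; values of both groups overlap, with 0 intronic sites in Pdgfra as in Erbb3 and Kit.

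The share of the gene body in sites gave another order. It was 40.6% in Axl, 30.1% in Igf1r, 29.5% in Pdgfrb, 25.4% in Fgfr1 and 8.31% in Pdgfra. Among the other receptors it was 18.8% in Egfr, 14.2% in Met, 6.24% in Fgfr2, 1.41% in Erbb3 and 0% in Kit. Fgfr2 rose to 17.9% without its long transcript. Hence 4 mesenchymal genes lay above all other receptors by this measure, with Pdgfra below Egfr, Met and, without the long transcript, Fgfr2. The median of all protein-coding genes was 2.22%. Promoter sites of the 10 genes had a median width of 1046.5 bp (n = 24), intronic sites 421.5 bp (n = 466), exonic sites 294 bp (n = 11) and flanking sites 441.5 bp (n = 78), while the whole list had a median of 401 bp. The median width of intronic sites was 420 bp in mesenchymal and 425 bp in other receptors. The 337 intronic sites of the other receptors included 256 of Fgfr2 with its long transcript, compared to 25 without it. Widths without that transcript were not computed.

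Most flanking sites lay at or in other genes. A flanking site was present in 8 of the 10 genes, all but Pdgfra and Kit, compared to 77.4% of all protein-coding genes. The mesenchymal receptors had 16 in Igf1r, 14 in Fgfr1, 13 in Axl, 4 in Pdgfrb and 0 in Pdgfra. The other receptors had 12 in Erbb3, 9 in Fgfr2, 5 in Egfr, 5 in Met and 0 in Kit. Without its long transcript Fgfr2 had 16, as many as Igf1r, and the median of the other receptors stayed at 5. The medians were 13 and 5, and protein-coding genes had a median of 5. Of the 78 flanking sites, with Fgfr2 as annotated, 19 were at the promoter and 31 in the body of another gene, and 28 were intergenic. When only intergenic flanking sites were counted, the medians were 0 in the mesenchymal and 2 in the other receptors. Within 25 kb the medians were 2 and 3. The higher number of flanking sites in the mesenchymal group was therefore found with the flanks of 50 and 100 kb that included other genes and not with these alternatives.

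Intronic sites were searched for short sequence motifs, and 1 site each of Igf1r, Egfr and Met is shown because these genes had the most intronic sites without the long Fgfr2 transcript. For each gene the site with the most matches to the AP-1 motif TGANTCA was taken, or the widest among equals. AP-1 factors such as FOS and JUN act downstream of growth factor receptors. The middle 200 bases are written 5′ to 3′ on the plus strand, which is the strand of all 3 genes, with AP-1 matches in capitals. The build is GRCm38.p6, and the sites are in intron 1 of Igf1r (chr7:67972483-67972682), Egfr (chr11:16830651-16830850) and Met (chr6:17506967-17507166).
Igf1r: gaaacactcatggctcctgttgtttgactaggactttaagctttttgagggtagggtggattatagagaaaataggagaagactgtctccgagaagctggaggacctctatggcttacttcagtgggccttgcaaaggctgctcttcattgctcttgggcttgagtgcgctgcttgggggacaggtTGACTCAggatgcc
Egfr: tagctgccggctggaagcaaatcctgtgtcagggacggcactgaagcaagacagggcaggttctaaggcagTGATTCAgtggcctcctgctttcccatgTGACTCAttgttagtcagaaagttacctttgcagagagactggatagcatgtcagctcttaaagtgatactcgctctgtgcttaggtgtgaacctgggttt
Met: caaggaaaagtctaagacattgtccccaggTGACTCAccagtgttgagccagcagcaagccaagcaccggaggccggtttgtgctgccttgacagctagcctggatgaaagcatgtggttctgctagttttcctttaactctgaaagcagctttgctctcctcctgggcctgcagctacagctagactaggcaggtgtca
The sites lay 19756, 78540 and 15826 bp after the TSS and measured 3931, 859 and 1140 bp.

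Matches to TGANTCA on either strand in the middle 200 bases were found in 8 of 53 intronic sites of Egfr (15.1%), and all 8 were among the 43 sites of intron 1 (18.6%). They were found in 7 of 106 sites in Igf1r (6.60%), in 2 of 28 in Met (7.14%) and in 2 of 25 in Fgfr2 without its long transcript (8.00%). Pdgfrb, Fgfr1 and Axl had 0 in 7, 7 and 9 sites. Of all 99286 sites more than 1 kb from every TSS, 8.83% had a match, as did 4.89% of the 22885 sites within 1 kb of a TSS. The TEAD motif GGAATG was found on either strand in 29 of the 235 intronic sites of these genes (12.3%), compared to 12.9% of all sites away from TSSs. The motifs share no sequence and were counted separately. A match describes the letters only, and it was not tested whether a factor binds there.

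CpG content was compared with promoter cover over the 1001 bases around the principal TSS. The observed to expected CpG ratio had a median of 0.737 in protein-coding genes with a promoter site and 0.231 in those without. Igf1r with 0.959, Fgfr2 with 0.927 and Fgfr1 with 0.802 lay above the median of covered genes. Pdgfrb with 0.394 and Axl with 0.325 were fully covered at a low ratio. Kit with 0.684 and Erbb3 with 0.600 had 0% cover at a ratio above that of Pdgfra with 0.573 and, for Kit, of Egfr with 0.632. Among the 8269 protein-coding genes with a ratio of at least that of Kit, 87.2% had a promoter site, and among the 10378 with at least that of Erbb3 the share was 84.6%. Kit and Erbb3 thus belonged to the minority of genes with such a CpG ratio that had no promoter site.

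**Figure D4:**
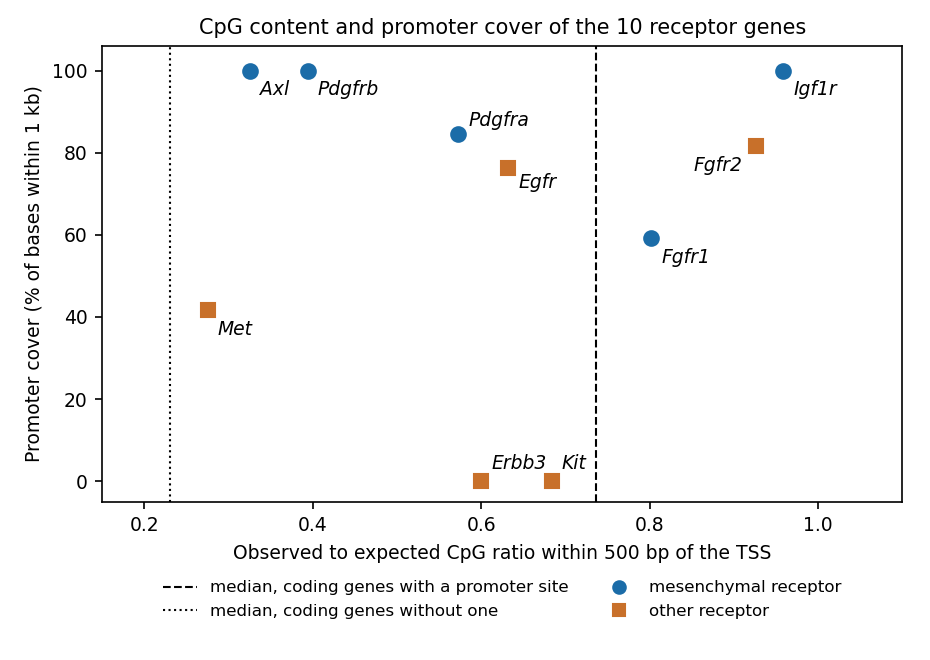
Promoter cover in percent of the bases within 1 kb of the TSS against the observed to expected CpG ratio within 500 bp of the TSS, with 1 point per gene (circles for mesenchymal, squares for other receptors). The dashed and dotted lines mark the medians of 0.737 and 0.231 for protein-coding genes with and without a promoter site. Axl and Pdgfrb combine full cover with low ratios, while Erbb3 and Kit are at 0% with ratios of 0.600 and 0.684.

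Other genes of the pathway were taken from 3 lists. Of 49 further receptor tyrosine kinases, 30 had a promoter site (61.2%), with a median cover of 17.9%. This was close to the 54.7% of all protein-coding genes with a promoter site and to their median cover of 20.2%. The highest cover was found in the collagen receptor Ddr2 and in Ptk7, a pseudokinase of Wnt signalling, with 100% each, and in the ephrin receptor Epha4 with 91.6%. Ddr2 and Ptk7 were the only ones of the 49 with the full cover of Pdgfrb, Igf1r and Axl. Of the 19 without a promoter site, examples by the same rule were Kdr, Tie1, Flt3, Ret, Alk and Erbb4. Ephb2 was counted among them although its promoter had a cover of 87.6%, since the middle of its site lay more than 1 kb from every start. By intronic sites per 100 kb, Igf1r ranked 1, Egfr 4 and Axl 5 of the 59 receptor genes.

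Of 25 ligands of the receptors, 17 had a promoter site (68.0%), compared to 54.7% of all protein-coding genes. Their median cover was 15.3%, compared to 20.2%. The ligands of Pdgfra and Pdgfrb differed, with a cover of 100% in Pdgfa, 79.5% in Pdgfc and 84.5% in Pdgfd but 0% in Pdgfb. Of the ligands of Egfr, Hbegf had 100% and Ereg 98.2%, while Tgfa, Btc and Epgn had no promoter site. Areg had 10.0%, and Egf had 1 promoter site but 0% cover at its principal TSS. Fgf7 had 87.0% and Fgf2 74.3%, and Fgf1 and Fgf22 had 0%. Igf2 had no promoter site. Of the neuregulins, which bind Erbb3 or its partners, Nrg2 had no promoter site and 1 intronic site, and Nrg1 had 1 promoter site and 55 intronic sites in 1070 kb, with 0% cover at its principal TSS. Kitl, the ligand of Kit, had a cover of 59.4% and 8 intronic sites, so the ligand gene carried H3K27ac where the receptor gene had none. Hgf, the ligand of Met, had 38.9%, Igf1 23.0% and Gas6 21.3%.

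All 27 genes of adaptors and inhibitors had a promoter site, compared to 54.7% of all protein-coding genes, with a median cover of 84.7%. Spry2 and Spred3, which dampen RAS-MAP kinase signalling, had 100%, and Frs2, the adaptor of FGF receptors, had 99.8% together with 39 intronic sites. The lowest cover of this list was 39.8% in Spry1. The adaptor and inhibitor genes of this list were thus marked at the promoter throughout, whereas receptors and ligands varied from 0% to 100%. The CpG ratios of the lists were not compared.

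**Figure D5:**
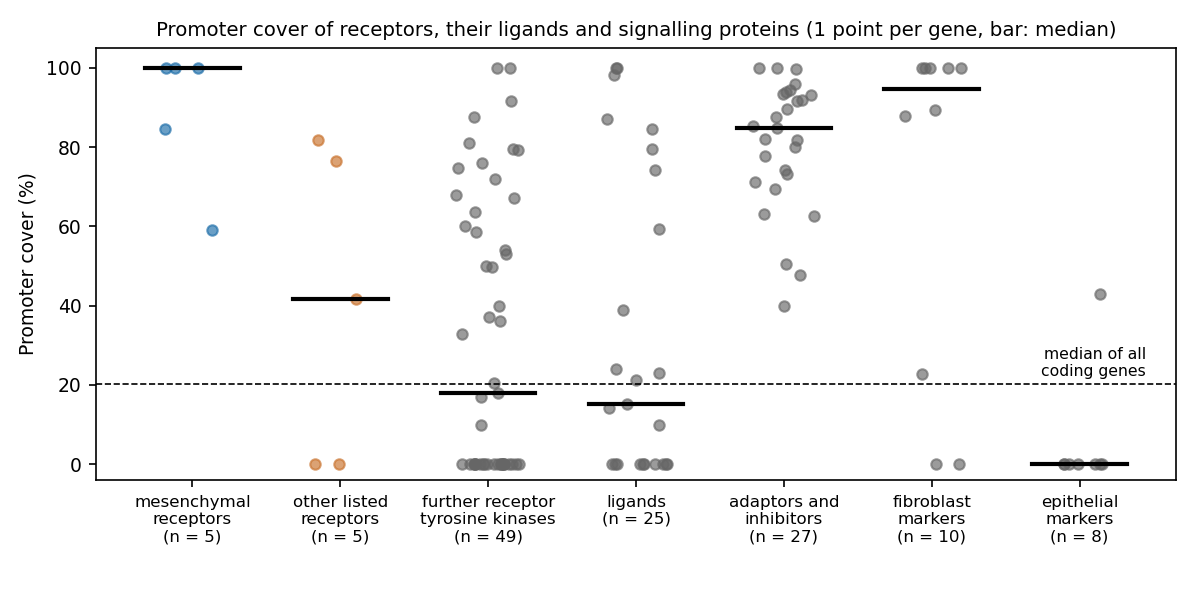
Promoter cover in percent for the mesenchymal and other receptors, further receptor tyrosine kinases, ligands, adaptors and inhibitors, and fibroblast and epithelial markers, with 1 point per gene and a bar at the median. The dashed line is the median of all protein-coding genes (20.2%), and points were spread sideways at random. The adaptors and inhibitors have a median of 84.7% and no gene below 39.8%, while further receptor tyrosine kinases and ligands range from 0% to 100%.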

How the data were processed

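H3K27ac ChIP-seq was carried out in 12 libraries, with 2 input libraries. Trim Galore was used by the authors for trimming and BWA for alignment to GRCm38 (mm10). Replicates were merged with Picard. MACS, listed as MACS2 in the submitters' processing notes, was used for narrow peaks. Its version and threshold, whether merging came before peak calling and the way in which peaks were joined are not given in the sources used here. The list analysed here, as deposited, gives positions of the joined sites with no count, score or sample column, so a site can stem from any sample. Other data of the series were not used here.

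Starts were read as counted from 0, which gave a narrowest width of 200 bp, and are printed counted from 1. Genes were from GENCODE release M21, and sequences from RefSeq (GRCm38.p6). Promoter sequences were matched by symbol, and those of Pdgfrb, Erbb3 and Fgfr1 are named only. The principal transcript had the best APPRIS tag, then the best transcript support level, then the greatest length. Intronic sites had the middle in the gene body, in no exon and more than 1 kb from every TSS of the gene. Percentiles are among 21755 protein-coding genes, except those of intronic sites, which are among the 9459 of at least 22.1 kb. The members, groups and lists were chosen with earlier results of these data known. Named are all 10 receptor genes, neighbours with a flanking site and, of each list, the 3 genes with the highest cover and up to 15 of the smaller side. Further genes of the lists were named after their values were seen. The classification recovered planted sites in simulated data. Python 3.11.15, numpy 2.4.6, pandas 2.3.3, pysam 0.24.0 and matplotlib 3.10.9 were used.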

Additional observations from a re-analysis of the deposited data

How the results depend on the processing

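No paired analysis was possible because only positions pooled over samples were analysed here. Each median rested on 5 genes. All 8 alternatives kept the median cover of the mesenchymal receptors above that of the others. In 1 of them, without the long Fgfr2 transcript, cover could not change, because the principal TSS stayed the same. With the outermost 5′ end Fgfr1 had 0% and Pdgfra 21.4%, below Fgfr2 with 100%, Egfr with 76.0% and Met with 69.8%. Pdgfrb, Igf1r and Axl stayed at 100%, and Erbb3 and Kit at 0%. The order of the group medians was not kept for intronic sites in 2 of 8 alternatives and for flanking sites in 2 of 8. The median cover of the other receptors was 69.8% with the outermost 5′ end or the TSS of highest cover, and 20.8% with Egfr grouped as mesenchymal. Omission of 1 gene at a time gave 20.8, without Egfr or Fgfr2, to 59.0%, without Erbb3 or Kit. Intronic sites per 100 kb of mesenchymal and other receptors were 8.06 and 4.15 after merging sites less than 1 kb apart. For the other receptors the value was 4.32 with Egfr moved, 17.0 with Igf1r moved and 24.1 without the long Fgfr2 transcript, an alternative chosen after seeing the data, and with Igf1r moved the mesenchymal value was 14.4. Omission of 1 gene gave 4.32, without Egfr or Met, to 17.0, without Erbb3 or Kit. Flanking sites of mesenchymal and other receptors were 2 and 3 with 25 kb, 17 and 9 with 100 kb, 0 and 2 outside every other gene, and 5 and 3 after merging. The mesenchymal median was 8.5 with Igf1r moved, and 8.5 to 13.5 without 1 gene, with the lowest value without Fgfr1 or Igf1r. With Igf1r moved, all 4 genes left in the mesenchymal group had a promoter site. So did 4 genes of the enlarged other group, which also held Erbb3 and Kit without one.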
